A study of Homo sapiens with 6 samples.

Results

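The RNA of human HT-29 cells that received siRNAs against HOXB-AS3 was compared with the RNA of HT-29 cells that received siRNAs against HOXA-AS3, over all genes. HT-29 is an established colorectal cancer line of epithelial origin. The comparison used 4 of the 6 libraries of the series, 2 with siHOXB-AS3 and 2 with siHOXA-AS3, all harvested 48 h after transfection of an siRNA pool with DharmaFECT 4. The other 2 libraries came from cells given a non-targeting control pool (siNT) and served to place each difference on the side of one knockdown or of the other. Every group had the same parental line, reagent and time, and no group was left untransfected. Of the genes quantified, 13002 had enough counts to be tested. The labels and the study's methods give different siRNA concentrations and different RNA extraction reagents, so neither is stated here. Nothing in the labels says that replicates were separate cultures, so the p-values measure only the spread between these libraries.

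HOXA-AS3 and HOXB-AS3 are long noncoding RNAs (lncRNAs) transcribed from the centre of the HOXA and HOXB clusters, antisense to HOX genes, which encode transcription factors that give cells their position along the body axis. An siRNA is loaded into an Argonaute protein as a single guide strand, and a target that pairs with the whole guide is cut. A transcript that pairs only with the seed of the guide (bases 2 to 8 from its 5′ end), most often in its 3′ untranslated region (UTR), can be lowered in the manner of a microRNA target. A comparison of a pair of knockdowns therefore holds the response to each lncRNA and the other targets of each pool, and the 2 cannot be told apart with 1 pool per lncRNA.

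The guide strands are shown because some of the results below are set beside their seeds, printed in capitals. The first 4 belong to the siHOXA-AS3 pool and are the reverse complements of the strands the study lists. The next 3 belong to the siHOXB-AS3 pool and are given as listed, without the 3′ overhang.
HOXA-AS3 guide 1: uUGUUCGCuauucugucuc
HOXA-AS3 guide 2: uUGUUCGGcccuuccauug
HOXA-AS3 guide 3: aGCUUCGCuguccuuuccu
HOXA-AS3 guide 4: uAACGAGUgcccugucuac
HOXB-AS3 guide 1: aCUUUGUCucccuuugucg
HOXB-AS3 guide 2: uUUCUUUCaugcccgacuc
HOXB-AS3 guide 3: uUUCCCUUcaccccuugac

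Guides 1 and 2 of the siHOXA-AS3 pool share bases 2 to 7. Matched to GRCh38, each guide is complementary to an exon of its lncRNA. The targets of siHOXA-AS3 guides 1 to 4 lie at chr7:27155847-27155865, chr7:27152656-27152674, chr7:27154078-27154096 and chr7:27155265-27155283 on the plus strand. Guide 2 matches 4 of the 5 annotated HOXA-AS3 transcripts and each of the others matches 1. The targets of siHOXB-AS3 guides 1 to 3 lie at chr17:48590450-48590468, chr17:48600494-48600512 and chr17:48590467-48590485, in 2, 8 and 2 of the 15 annotated HOXB-AS3 transcripts.

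Libraries held between 15998518 and 26263938 expected counts. The siHOXA-AS3 libraries lay further apart than the other pairs: the log2 difference between replicates had an SD over genes of 0.73 in siHOXA-AS3, against 0.42 in siNT and 0.37 in siHOXB-AS3, and 1741 genes differed by at least 2-fold between the siHOXA-AS3 replicates against 276 between the siHOXB-AS3 replicates. Across genes, the difference between the siHOXA-AS3 replicates followed GC content (Pearson's r = 0.753 over 12751 genes, which are not independent replicates). Of 13 colon epithelial markers, 11 had a mean of at least 1 FPKM (fragments scaled to transcript length and library size), with summed levels of 4687 to 5040 FPKM in siNT, 3985 to 5946 in siHOXA-AS3 and 4308 to 4357 in siHOXB-AS3. As single genes, 10 of the 13 had a lower level in siHOXB-AS3 than in siHOXA-AS3. None of 10 fibroblast or 8 endothelial markers reached 1 FPKM, 5 and 4 of them were listed at 0 in every library, and their sums were at most 0.24 and 0.13 FPKM. Of 10 blood cell markers only LYZ, which encodes lysozyme, reached 1 FPKM, and its difference between the knockdowns did not pass the test (log2 -0.54, adjusted p = 0.118). In bulk RNA, fewer cells of a type and less RNA per cell cannot be told apart.

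The targeted lncRNAs were read first. HOXB-AS3 (Entrez Gene 404266, chromosome 17) stood at 11.4 and 13.2 CPM (counts scaled to library size, with TMM factors) in siNT, 11.1 and 12.2 in siHOXA-AS3 and 2.75 and 3.55 in siHOXB-AS3. Both siHOXB-AS3 libraries lay below the other 4, and the level was 3.69-fold lower than in siHOXA-AS3 (log2 -1.88 ± 0.25 SE, adjusted p = 0.029, quasi-likelihood test of edgeR, adjusted by Benjamini-Hochberg, used for every adjusted p here). HOXA-AS3 (Entrez Gene 100133311, chromosome 7) stood at 1.42 and 1.11 CPM in siNT, 0.507 and 0.702 in siHOXA-AS3 and 1.23 and 1.03 in siHOXB-AS3. Both siHOXA-AS3 libraries were lowest, on 12 counts each, but the difference between the knockdowns did not pass the test at this depth (log2 0.92 ± 0.40, adjusted p = 0.288).

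Across the transcriptome, 200 genes separated the knockdowns at an adjusted p below 0.05, which is 1.54% of the 13002 tested. HOXB-AS3 knockdown had the higher level in 78 (0.6%) and the lower level in 122 (0.938%). The median absolute log2 fold change of the 200 was 1.55 and the lowest was 0.80. In all 200 the siHOXB-AS3 libraries lay on one side of both siHOXA-AS3 libraries, as they also did, in the higher and lower direction, in 22.8% and 22.5% of all genes. At an unadjusted p below 0.05 the counts were 1024 higher (7.88%) and 1362 lower (10.5%). The number of calls rested on single libraries: it was 5026 without siHOXA-AS3 replicate 1, 4827 without siHOXA-AS3 replicate 2, 15 and 16 without siNT replicate 1 or 2, and 0 without either siHOXB-AS3 replicate, where 1097 and 942 genes kept an unadjusted p below 0.05. With the GC trend of each library removed it was 3593, with 199 of the 199 calls that had a GC value kept, and it was 2 when only the 4 libraries compared were fitted.

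To say which knockdown lay away from siNT, the log2 fold change of siHOXB-AS3 against siNT was divided by the log2 fold change between the knockdowns. A share of at least 0.6667 was called mainly siHOXB-AS3 and a share of at most 0.3333 mainly siHOXA-AS3. A share in between was called opposite, since the knockdowns then lie on opposite sides of siNT by more even amounts. Any share above 0 and below 1 puts them on opposite sides, so most genes of the other classes lay there too, by unequal amounts. The share was over 1 in 20 of the 200 genes and under 0 in 1. Of the 200 genes, 92 were mainly siHOXB-AS3 (46%, 95% exact binomial interval 38.95% to 53.17%, which treats genes as independent), 86 were opposite and 22 were mainly siHOXA-AS3. The share was 21.27% of the calls without siHOXA-AS3 replicate 1, 28.13% without siHOXA-AS3 replicate 2 and 31.25% without siNT replicate 2. These shares are over other sets of calls, so the interval does not apply to them. The 92 comprised 31 genes higher and 61 lower in siHOXB-AS3, and the 22 comprised 16 genes low and 6 genes high in siHOXA-AS3. In the 86 opposite genes siHOXB-AS3 was higher in 31 and lower in 55. The 200 were picked for a large difference between the knockdowns, which favours genes with the knockdowns on opposite sides of siNT. The classes were not counted over all genes, so their sizes have no background here. This is a description of positions: against siNT, with the same fit, 8 genes passed the test in siHOXB-AS3 (0.0615%), 4 higher (0.0308%) and 4 lower (0.0308%), and 0 in siHOXA-AS3 (0.0%). At an unadjusted p below 0.05 the counts against siNT were 1575 (12.1%, with 7.74% lower) and 801 (6.16%, with 3.41% lower), and DESeq2 called 330 and 49. Both differences from siNT share the siNT libraries, so they are given side by side only. Among the 200 genes the siHOXA-AS3 replicates lay on opposite sides of the siNT mean in 25.

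**Figure D1:**
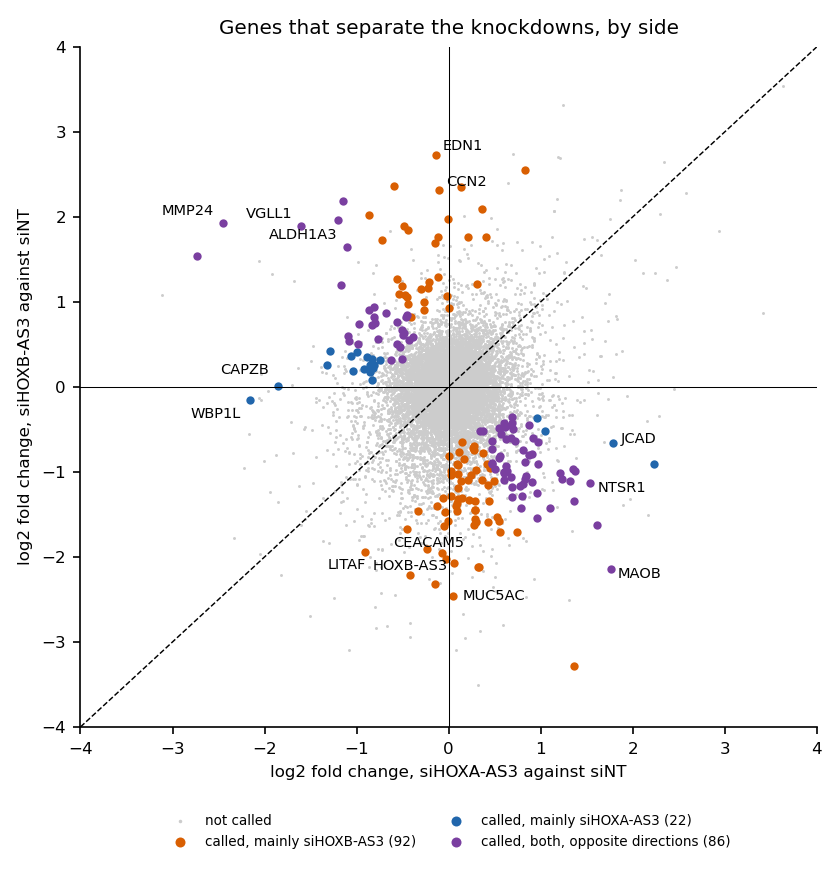
Each point is a gene, placed by its log2 fold change in siHOXA-AS3 against siNT (x axis) and in siHOXB-AS3 against siNT (y axis), both from the fit on 6 libraries. The 200 genes called between the knockdowns are coloured by side (92 mainly siHOXB-AS3, 22 mainly siHOXA-AS3, 86 opposite) and lie away from the dashed line of equal change. 3 called genes fall outside the axes, which end at 4.

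Among the 14 genes highest in siHOXB-AS3 relative to siHOXA-AS3 (log2 1.98 to 4.38), 8 were mainly siHOXB-AS3, 5 opposite and 1 mainly siHOXA-AS3. Among the 14 lowest (log2 -3.90 to -2.02), 7 were mainly siHOXB-AS3 and 7 opposite. All 28 kept their direction in every alternative that was run. They were picked as called genes whose knockdown libraries did not overlap, so their direction could hardly change. Of the 28, 2 stayed called when only the groups compared were fitted and 7 with a replicate block.

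Opposite genes higher in siHOXB-AS3 included a protease, a TEAD cofactor and an enzyme of retinoic acid synthesis. MMP24, a membrane-type matrix metalloproteinase, stood at 4.87 and 7.24 CPM in siNT, 1.44 and 0.702 in siHOXA-AS3 and 22.2 and 23.6 in siHOXB-AS3. The 3 groups did not overlap, with siNT in the middle, and the knockdowns differed 20.8-fold (log2 4.38 ± 0.39, adjusted p = 0.0161). VGLL1, a cofactor of TEAD transcription factors, stood at 18.6 and 17.8 CPM in siNT, 6.63 and 5.32 in siHOXA-AS3 and 63.4 and 71.7 in siHOXB-AS3. Its separation was 11.2-fold (log2 3.49 ± 0.22, adjusted p = 0.00595, the smallest of all genes and shared with PLAC8), of which log2 1.89 lay between siNT and siHOXB-AS3 and -1.60 between siNT and siHOXA-AS3. ALDH1A3, which makes retinoic acid from retinaldehyde, stood at 63.5 and 54.7 CPM in siNT, 22.6 and 32.3 in siHOXA-AS3 and 201 and 169 in siHOXB-AS3. Here too siNT lay between the knockdowns, which differed 6.75-fold (log2 2.75 ± 0.24, adjusted p = 0.0161). The class IIa histone deacetylase gene HDAC9 differed 5.16-fold (log2 2.37, adjusted p = 0.0285), with log2 1.2 on the siHOXB-AS3 side and -1.17 on the siHOXA-AS3 side.

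Opposite genes lower in siHOXB-AS3 included receptors and a Hedgehog transcription factor. MAOB, the mitochondrial monoamine oxidase B, stood at 2.70 and 2.10 CPM in siNT, 8.53 and 7.89 in siHOXA-AS3 and 0.658 and 0.421 in siHOXB-AS3. It was 15-fold lower in siHOXB-AS3 than in siHOXA-AS3 (log2 -3.90 ± 0.34, adjusted p = 0.0161), with siNT between them. NTSR1, the neurotensin receptor, stood at 67.0 and 80.7 CPM in siNT, 258 and 172 in siHOXA-AS3 and 36.2 and 31.2 in siHOXB-AS3. The groups again did not overlap, and the knockdowns differed 6.37-fold (log2 -2.67 ± 0.25, adjusted p = 0.0174). ANTXR2, the anthrax toxin receptor, differed 6.51-fold (log2 -2.70, adjusted p = 0.0273). GLI1, the effector of Hedgehog signalling, differed by log2 -2.36 (adjusted p = 0.0428), and its siHOXA-AS3 libraries stood apart at 9.08 and 4.79 CPM. MALL, a lipid raft protein of the MAL family, stood at 468 and 489 CPM in siNT, 943 and 765 in siHOXA-AS3 and 229 and 223 in siHOXB-AS3. It differed 3.78-fold (log2 -1.92 ± 0.16, adjusted p = 0.0161).

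Genes on the siHOXB-AS3 side with a higher level included secreted signalling proteins. EDN1, which encodes the peptide endothelin-1, stood at 2.21 and 2.35 CPM in siNT, 2.45 and 1.64 in siHOXA-AS3 and 12.2 and 18.2 in siHOXB-AS3. The siHOXA-AS3 and siNT libraries overlapped, and siHOXB-AS3 was 7.33-fold above siHOXA-AS3 (log2 2.87 ± 0.33, adjusted p = 0.0273). CCN2 and CCN1 encode matricellular proteins that are widely used as YAP/TEAD targets. CCN2 stood at 19.4 and 22.3 CPM in siNT, 20.9 and 17.9 in siHOXA-AS3 and 86.6 and 120 in siHOXB-AS3, and separated the knockdowns 5.33-fold (log2 2.41 ± 0.24, adjusted p = 0.0174). CCN1 separated them 3.95-fold (log2 1.98, adjusted p = 0.0369), with log2 1.97 against siNT in siHOXB-AS3 and -0.01 in siHOXA-AS3. BMP2, a bone morphogenetic protein ligand, stood at 4.61 and 5.57 CPM in siNT, 6.25 and 6.78 in siHOXA-AS3 and 21.6 and 21.7 in siHOXB-AS3 (3.33-fold, log2 1.73, adjusted p = 0.0285). AREG, the EGF receptor ligand amphiregulin, was 2.13-fold higher (log2 1.09, adjusted p = 0.0485).

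PLAC8, which had the same adjusted p, stood at 109 and 115 CPM in siNT, 69.0 and 67.1 in siHOXA-AS3 and 390 and 352 in siHOXB-AS3, a 5.45-fold separation (log2 2.45 ± 0.16, adjusted p = 0.00595). BIRC3, a ubiquitin ligase of TNF receptor signalling, and PI3, the elastase inhibitor elafin, were 4.89-fold and 4.64-fold higher in siHOXB-AS3 (log2 2.29 and 2.21, adjusted p = 0.0372 and 0.0383). Both lay mainly on the siHOXB-AS3 side.

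Genes on the siHOXB-AS3 side with a lower level included mucins, adhesion proteins and receptors. MUC5AC, a gel-forming mucin of the stomach and of goblet-like cancer cells, stood at 19 and 16.3 CPM in siNT, 22.5 and 14.1 in siHOXA-AS3 and 3.86 and 2.57 in siHOXB-AS3. MUC2, the main gel-forming mucin of intestinal goblet cells, stood at 27.1 and 16.3 CPM in siNT, 28.4 and 25.9 in siHOXA-AS3 and 5.55 and 4.49 in siHOXB-AS3. For both mucins siHOXB-AS3 lay below the other 4 libraries, and the separation from siHOXA-AS3 was 5.67-fold for MUC5AC (log2 -2.50 ± 0.33, adjusted p = 0.0316) and 5.40-fold for MUC2 (log2 -2.43 ± 0.30, adjusted p = 0.0285). The other 2 groups overlapped for MUC5AC, at log2 0.05, and siHOXA-AS3 lay at log2 0.32 from siNT for MUC2. M6PR, the cation-dependent mannose 6-phosphate receptor, which sorts enzymes to lysosomes, differed 2.75-fold (log2 -1.46, adjusted p = 0.0273), with log2 -1.36 on the siHOXB-AS3 side.

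CEACAM5, the carcinoembryonic antigen, stood at 237 and 227 CPM in siNT, 236 and 212 in siHOXA-AS3 and 77.3 and 72.3 in siHOXB-AS3. It was 2.99-fold lower in siHOXB-AS3 than in siHOXA-AS3 (log2 -1.58 ± 0.15, adjusted p = 0.0174), and its neighbour CEACAM6 differed by a like amount (log2 -1.56, adjusted p = 0.0174). EPCAM, an epithelial adhesion protein, stood at 454 and 441 CPM in siNT, 427 and 470 in siHOXA-AS3 and 258 and 251 in siHOXB-AS3 (log2 -0.82, adjusted p = 0.0473). The receptor tyrosine kinase gene ERBB3 separated the knockdowns 2.43-fold (log2 -1.28, adjusted p = 0.0273). MAPRE3, which binds growing microtubule ends, and LFNG, a glycosyltransferase that modifies Notch, differed by log2 -2.26 and -2.17 (adjusted p = 0.0161 and 0.0383). In contrast, CDH17, an intestinal cadherin, lay mainly on the siHOXA-AS3 side: it stood at 25.1 and 22.6 CPM in siNT, 40.1 and 52.8 in siHOXA-AS3 and 18.9 and 18.1 in siHOXB-AS3 (log2 -1.32, adjusted p = 0.041).

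**Figure D2:**
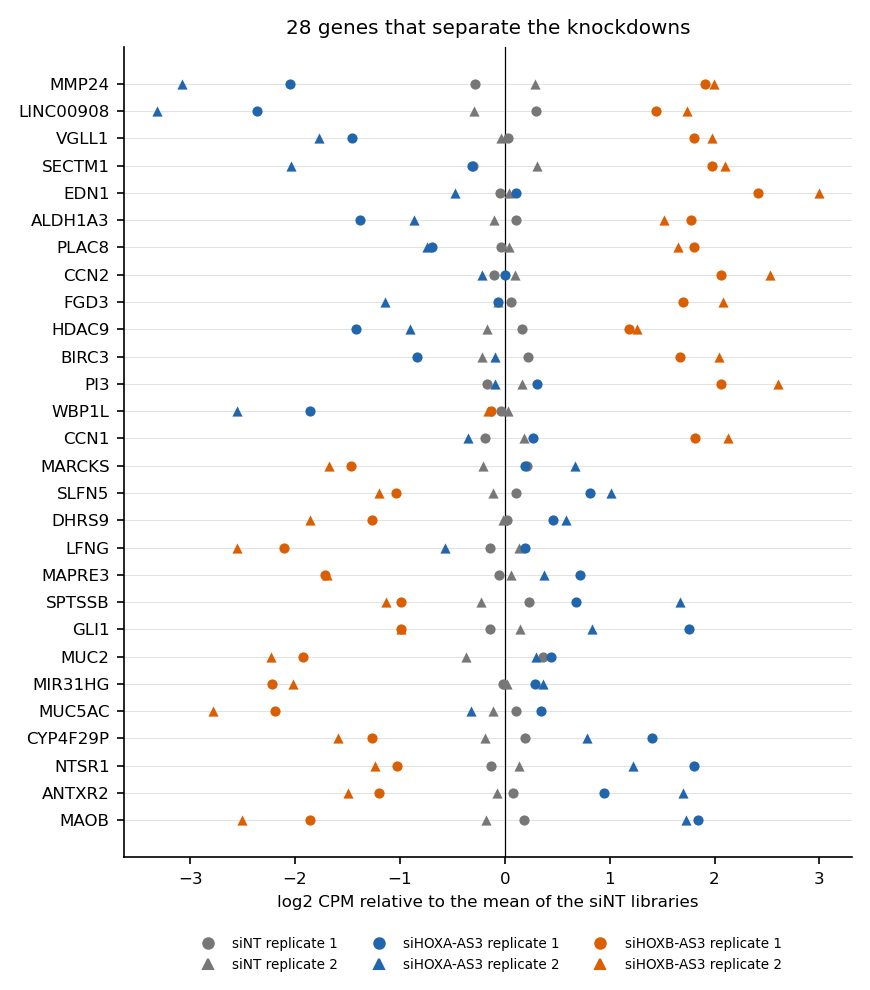
Each row is one of the 28 named genes with the widest separation, and each symbol is a library, placed by its log2 CPM minus the siNT mean (x axis). Colour gives the group (siNT grey, siHOXA-AS3 blue, siHOXB-AS3 orange) and shape the replicate; in each row both orange symbols lie on one side of both blue symbols, and for WBP1L it is the blue symbols that lie away from siNT.

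In 20 of the 200 genes both knockdowns lay on the same side of siNT with siHOXB-AS3 further out. One was LITAF, an endosomal membrane protein, which stood at 177 and 178 CPM in siNT, 100 and 89.0 in siHOXA-AS3 and 45.4 and 47.1 in siHOXB-AS3. The 3 groups did not overlap, the knockdowns differed 2.05-fold (log2 -1.03 ± 0.16, adjusted p = 0.039), and the differences from siNT were log2 -0.91 in siHOXA-AS3 and -1.94 in siHOXB-AS3.

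The 16 genes that were low mainly on the siHOXA-AS3 side lay at log2 -2.15 to -0.74 from siNT in siHOXA-AS3 and at -0.15 to 0.42 in siHOXB-AS3. In 15 of the 16 the siHOXB-AS3 libraries did not overlap siNT, and CAPZB was the exception. Over all genes, the siHOXB-AS3 libraries lay above both siNT libraries in 30.9% and below both in 30.9%. CAPZB (Entrez Gene 832, chromosome 1), the beta subunit of the actin capping protein, stood at 217 and 215 CPM in siNT, 64.1 and 55.3 in siHOXA-AS3 and 215 and 220 in siHOXB-AS3. The siHOXB-AS3 and siNT libraries overlapped, and the knockdowns differed 3.64-fold (log2 1.86 ± 0.16, adjusted p = 0.0161). WBP1L, a membrane protein that binds WW domains, stood at 27.8 and 29.1 CPM in siNT, 7.82 and 4.85 in siHOXA-AS3 and 25.9 and 25.4 in siHOXB-AS3. Only the siHOXA-AS3 libraries stood apart by more than 1 log2 unit, and the separation was 4.02-fold (log2 2.01 ± 0.26, adjusted p = 0.0306). ABCB10, a mitochondrial ABC transporter, was 3.28-fold apart (log2 1.72, adjusted p = 0.0286).

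Others of the 16 had smaller differences. MCM10 and POLA2, which serve the start of DNA replication, differed by log2 1.41 and 1.05 (adjusted p = 0.0383 and 0.0496). CHEK2, a checkpoint kinase, stood at 29.4 and 29.2 CPM in siNT, 16.8 and 14.2 in siHOXA-AS3 and 33.0 and 34.8 in siHOXB-AS3 (log2 1.13, adjusted p = 0.046). MCCC2, an enzyme of leucine breakdown, and GCSH, a part of the glycine cleavage system, differed by log2 0.92 and 1.22 (adjusted p = 0.039 and 0.0477). NAP1L4, a histone chaperone, differed by log2 1.03 (adjusted p = 0.0435). Of the 6 genes high mainly in siHOXA-AS3, JCAD, a protein of cell junctions, stood at 6.07 and 4.58 CPM in siNT, 19.6 and 17.4 in siHOXA-AS3 and 3.45 and 3.32 in siHOXB-AS3 (5.46-fold, log2 -2.45 ± 0.25, adjusted p = 0.0174). A further 2 of the 6, EIF3CL and FAM156B, are rows for extra copies of near-identical loci that held counts only in siHOXA-AS3, and their values are uncertain.

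**Figure D3:**
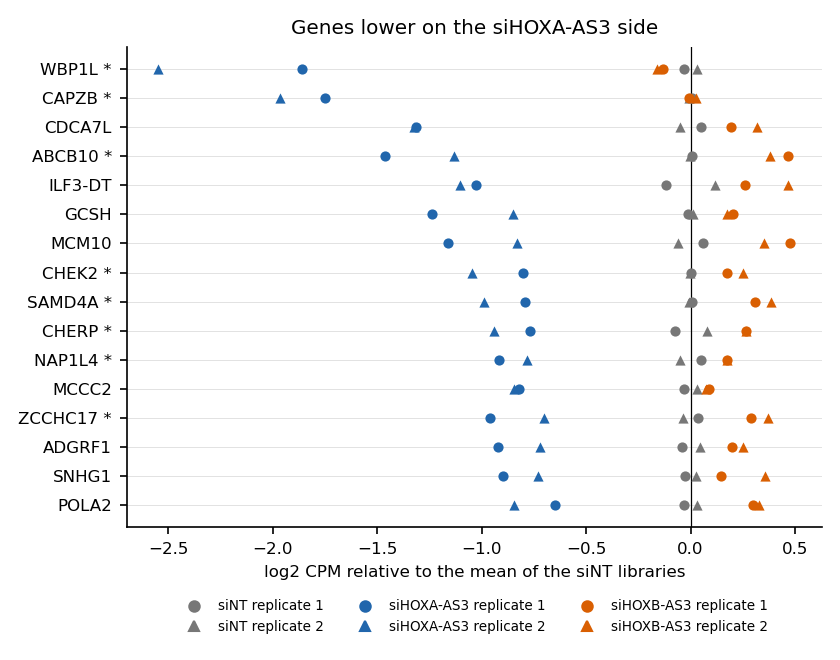
The 16 genes low mainly on the siHOXA-AS3 side are shown by library as log2 CPM minus the siNT mean (x axis), with the same colours and shapes for group and replicate. The siHOXA-AS3 symbols lie to the left in every row; an asterisk marks the 8 genes with a seed site of the siHOXA-AS3 pool in a 3′ UTR.

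Seed sites set this group beside the sequences printed above. A site was counted where an annotated 3′ UTR held the 7 letters complementary to guide bases 2 to 8 on the transcript strand. In the siHOXA-AS3 pool the site was GCGAACA for guide 1, CCGAACA for guide 2, GCGAAGC for guide 3 and ACUCGUU for guide 4. In the siHOXB-AS3 pool it was GACAAAG for guide 1, GAAAGAA for guide 2 and AAGGGAA for guide 3. Of 11021 tested genes with a 3′ UTR, 977 (8.86%) held a siHOXA-AS3 site and 5628 (51.1%) a siHOXB-AS3 site. Among the 16 genes, 14 had a 3′ UTR, and 8 of these (57.1%, 95% exact binomial interval 28.9% to 82.3%) held a siHOXA-AS3 site. The interval treats genes as independent, but all were picked as low in the same siHOXA-AS3 libraries. The share is therefore a description and not a test. In the opposite genes with siHOXA-AS3 low the share was 3 of 27 (11.1%), and in the genes low mainly in siHOXB-AS3 it was 4 of 54 (7.41%). The median 3′ UTR length was 1720 bases in the 14 genes and 1642 in all. With sites of 6 letters the share was 78.6% against 27.0% of all genes, and with the longest 3′ UTR only it was 50.0% against 6.93%.

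For siHOXB-AS3 sites, which are far more common, the share was 39 of 54 (72.2%) in genes low mainly in siHOXB-AS3, 30 of 50 (60%) in opposite genes with siHOXB-AS3 low and 14 of 26 (53.8%) in genes high mainly in siHOXB-AS3. The 3′ UTRs of the first group were longer than the background, with a median of 1985 bases. Among the 190 called genes with an annotated transcript, none other than HOXB-AS3 matched a whole guide of either pool with 3 or fewer mismatches. Such matches were rare over all 11792 tested genes with a transcript. There, 34 genes matched a siHOXA-AS3 guide and 28 a siHOXB-AS3 guide, the targeted lncRNAs apart. A match of letters is a description and does not show that the guide bound there.

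The sites of the 2 genes lowest on the siHOXA-AS3 side are printed with the site in capitals, on the transcript strand of GRCh38, and end opposite the first base of the guide.
CAPZB, guide 4, first site: tttcttagaaaACTCGTTt
CAPZB, guide 4, second site: acacgccgtgcACTCGTTa
WBP1L, guide 2: tttactgtttaCCGAACAa
WBP1L, guide 1, first site: gtgtctcaaagGCGAACAa
WBP1L, guide 1, second site: gatttgcaaatGCGAACAc
WBP1L, guide 3: acgggcctgagGCGAAGCa

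The CAPZB sites lie at chr1:19339464-19339482 and chr1:19339489-19339507 on the minus strand, in the 3′ UTR of all 4 of its transcripts with one, and share 10 and 13 of 19 bases with the target of the guide. The WBP1L sites lie at chr10:102815153-102815171, chr10:102815694-102815712, chr10:102816060-102816078 and chr10:102832553-102832571 on the plus strand, each in 1 of 3 transcripts with a 3′ UTR. Together with CHERP, CHEK2, SAMD4A, ABCB10, NAP1L4 and ZCCHC17, the 8 genes held 13 sites. The CHEK2 site lay in 1 of 16 transcripts with a 3′ UTR and the SAMD4A sites in 3 of 5. For NAP1L4 it was 3 of 4, for ZCCHC17 7 of 8, for CHERP 2 of 2 and for ABCB10 1 of 1. Which transcripts the cells expressed was not tested.

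Over all genes, given as a description without a test, the median level in siHOXA-AS3 was lower in genes with more siHOXA-AS3 sites. The median log2 fold change of siHOXA-AS3 against siNT was 0.0221 in the 10044 genes with no site, -0.0643 in the 895 with 1 site and -0.212 in the 82 with 2 or more. The share of genes below siNT was 46.6%, 58.0% and 80.5% in these classes in siHOXA-AS3, and 49.7%, 50.2% and 58.5% in siHOXB-AS3. Both siHOXA-AS3 replicates had this order, with medians of -0.202 and -0.354 at 2 or more sites. By guide they were less alike. Replicates 1 and 2 had medians of -0.118 and -0.0819 with a guide 1 site and -0.146 and -0.168 with guide 2. With guide 3 they had -0.0395 and -0.36, and with guide 4 -0.155 and -0.0132, against 0.00161 and -0.0147 with no site. The replicate difference followed GC content, and its part in these medians was not tested. By siHOXB-AS3 sites (5393, 2783 and 2845 genes with 0, 1 and 2 or more), the medians of siHOXB-AS3 against siNT were 0.0204, 0.00115 and -0.0373. The siHOXA-AS3 replicates ran in opposite directions across these classes. The share of genes below siNT was 47.6%, 49.8% and 54.0% in siHOXB-AS3, and 49.6%, 47.9% and 44.1% in siHOXA-AS3. With a site of siHOXB-AS3 guide 1, 2 or 3, the siHOXB-AS3 medians against siNT were -0.0607, 0.0112 and -0.0577. The shares below siNT there were 57.6%, 48.5% and 56.1%.

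**Figure D4:**
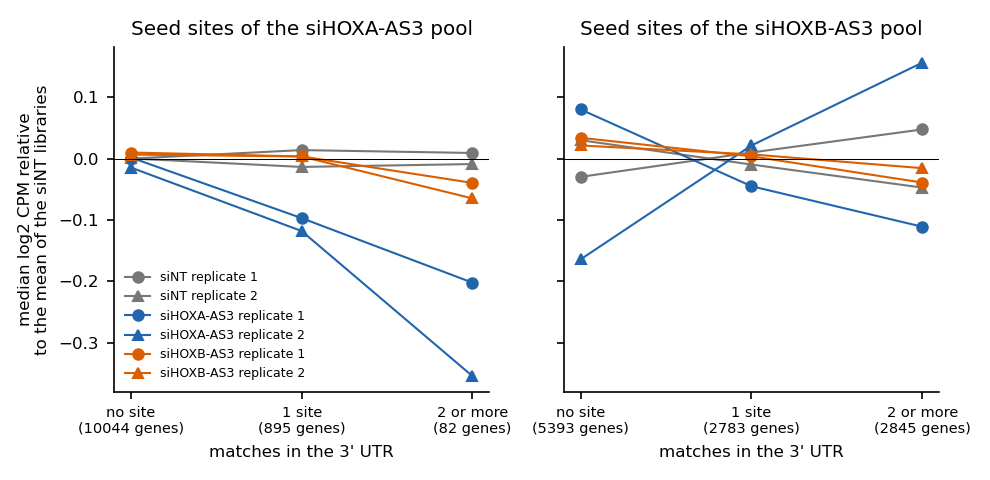
Lines join the median log2 CPM minus the siNT mean (y axis) over genes with no, 1 and 2 or more seed sites (x axis), one line per library, for sites of the siHOXA-AS3 pool (left) and of the siHOXB-AS3 pool (right). On the left both siHOXA-AS3 lines end lowest, at -0.202 and -0.354; on the right the siHOXA-AS3 replicates cross and the siHOXB-AS3 lines stay near 0.

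Gene lists were described by the number of members called and by the median log2 fold change between the knockdowns, which was -0.01 over all genes. Among all genes 0.6% were called higher in siHOXB-AS3, 7.88% were higher at an unadjusted p below 0.05, and 48.9% had a higher level whatever the test. NF-kB targets had the highest median of the lists shown, 0.60, with 2 of 19 genes called higher in siHOXB-AS3 (BIRC3 and the chemokine gene CXCL3) and 10 higher at an unadjusted p below 0.05. Against siNT their median was 0.77 in siHOXB-AS3 and 0.02 in siHOXA-AS3. Among 21 YAP/TEAD targets, 6 were called higher and 1 lower, with a median of 0.44 between the knockdowns, 0.65 in siHOXB-AS3 against siNT and -0.03 in siHOXA-AS3. Those higher were CCN1, CCN2, ANKRD1, AJUBA, PTPN14 and a row that joins TGFB2 with its overlapping transcript, and the one lower was NT5E (log2 -1.30, adjusted p = 0.0435). ANKRD1 had no count in siHOXA-AS3, 1 count in each siNT library and 33 and 32 in siHOXB-AS3, so it entered the test only through the group where it was high. Without it, 5 of 20 were called higher and 1 lower, with a median of 0.34.

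In the S phase, snoRNA host, ribosomal protein and rRNA processing lists 1 member each passed the test, which for ribosomal proteins (1.28%) and rRNA processing genes (0.943%) is below the 1.54% called over all genes in either direction. Of 43 S phase genes, 38 had a higher level in siHOXB-AS3 and 16 did so at an unadjusted p below 0.05, with a median of 0.55. Their medians against siNT were 0.08 in siHOXB-AS3 and -0.41 in siHOXA-AS3, where the mean log2 level of the list relative to siNT was -0.56 in replicate 1 and -0.23 in replicate 2. The called gene was TYMS, thymidylate synthase, at 100 and 108 CPM in siNT, 52.9 and 45.4 in siHOXA-AS3 and 138 and 165 in siHOXB-AS3 (log2 1.62 ± 0.18, adjusted p = 0.0273). Of 54 G2/M phase genes, 43 had a higher level in siHOXB-AS3 and 0 were called by edgeR. At an unadjusted p below 0.05, 13 of them were higher and 1 lower. Their median was 0.28, with 0.03 in siHOXB-AS3 and -0.29 in siHOXA-AS3 against siNT. The siHOXA-AS3 replicates had list means of -0.51 and -0.15. All 19 snoRNA host genes had a higher level in siHOXB-AS3, with a median of 0.57 split between both sides (0.29 and -0.26 against siNT). Of these SNHG1 was called, at 392 and 406 CPM in siNT, 214 and 240 in siHOXA-AS3 and 441 and 510 in siHOXB-AS3 (log2 1.06, adjusted p = 0.0369).

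Of 78 cytosolic ribosomal protein genes, 76 had a higher level in siHOXB-AS3 (median 0.29) and RPS12 was called (log2 0.94, adjusted p = 0.0377). Of 106 rRNA processing and nucleolar genes, 94 had a higher level (median 0.28), on the siHOXB-AS3 side (0.33 and 0.05 against siNT), and the RNA helicase gene DDX47 was called (log2 1.17, adjusted p = 0.0316). These small medians kept their sign in every alternative.

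Lists of epithelial genes were divided, and are read against 0.938% of all genes called lower and 10.5% lower at an unadjusted p below 0.05. Epithelial keratins had a median above 0, at 0.16, with 0 of 12 called by edgeR and 2 higher and 0 lower at an unadjusted p below 0.05. Cell junction genes had a median of 0.02, with 0 of 29 called higher and 2 lower (CDH17 and EPCAM). The 13 colon epithelial markers had a median of -0.65, with 3 called lower (CEACAM5, EPCAM and CDH17) and 7 lower and 0 higher at an unadjusted p below 0.05. Of 6 CEACAM genes, 2 were called lower and the median was -1.23, with -0.99 in siHOXB-AS3 against siNT and 0.18 in siHOXA-AS3. Of 22 goblet and mucin genes, 2 were called lower, 8 were lower and 3 higher at an unadjusted p below 0.05, and the median was -0.45. Of 23 enterocyte and brush border genes, 11 were lower at an unadjusted p below 0.05 and none higher, with a median of -0.52, and the called gene was CA12, a membrane carbonic anhydrase (log2 -1.22, adjusted p = 0.0478). All 11 S100 genes had a lower level (median -0.63), but none passed the test, 7 had an unadjusted p below 0.05, and the siHOXA-AS3 replicates stood at list means of 0.41 and -0.02. Of 14 Wnt target genes, 1 was called, the feedback inhibitor gene AXIN2, at 15.1 and 12.1 CPM in siNT, 22.6 and 19.8 in siHOXA-AS3 and 7.23 and 6.45 in siHOXB-AS3 (3.10-fold, log2 -1.63 ± 0.23, adjusted p = 0.0325). The integrin and laminin list of 20 genes had a median of -0.43, with 14 members lower, 2 called lower and 1 called higher, and 8 lower and 3 higher at an unadjusted p below 0.05. Those called lower were ITGA2, a collagen receptor subunit (log2 -1.89, adjusted p = 0.0174), and a row that joins COL17A1, a collagen of hemidesmosomes, with a microRNA (log2 -1.28, adjusted p = 0.0383). The one called higher was the laminin chain gene LAMB1 (log2 0.98, adjusted p = 0.0422).

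**Figure D5:**
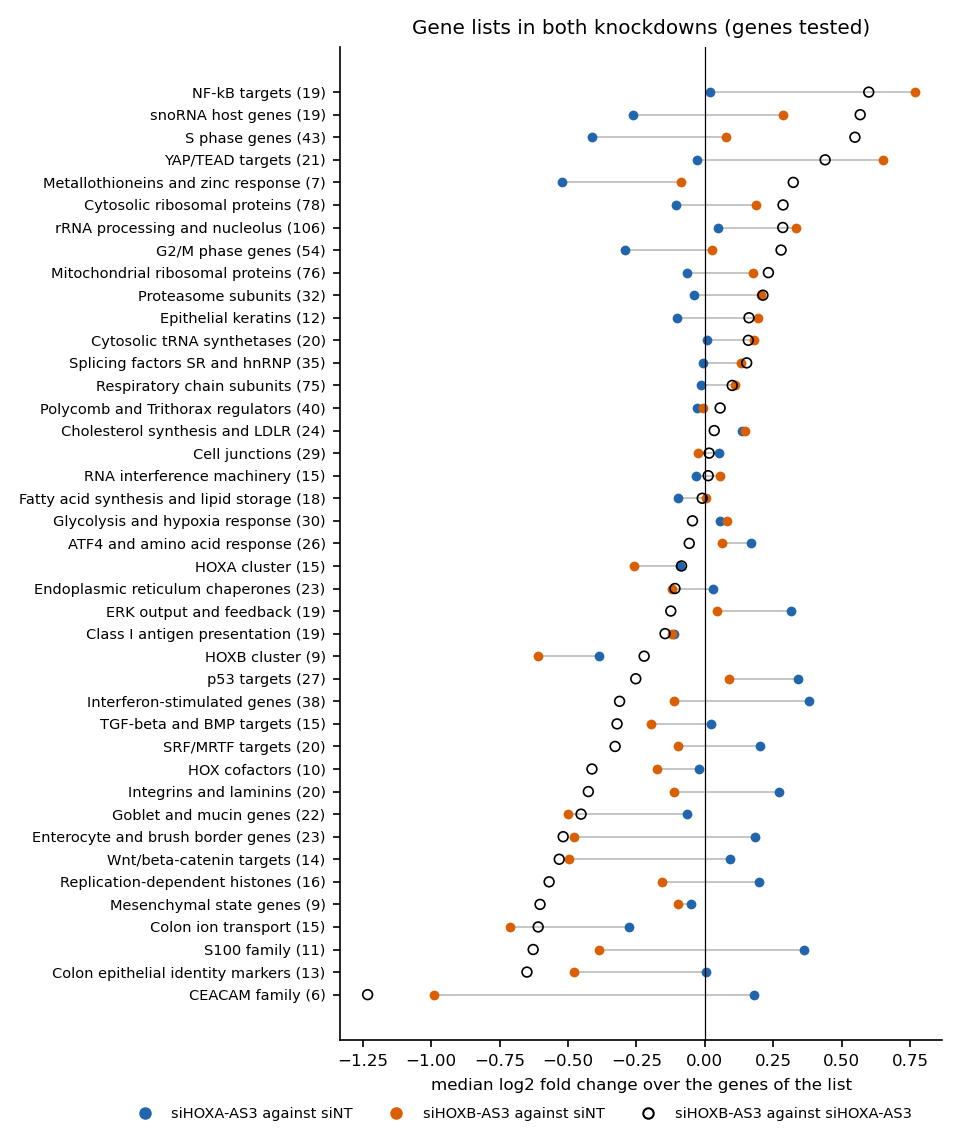
Each row is a gene list with the number of genes tested in brackets, and the x axis is the median log2 fold change over its genes. Filled points show siHOXA-AS3 (blue) and siHOXB-AS3 (orange) against siNT and open circles siHOXB-AS3 against siHOXA-AS3, from 0.60 for NF-kB targets to -1.23 for the CEACAM family.

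In 18 of 41 lists the siHOXA-AS3 replicates had list means on opposite sides of siNT, against 1 of 41 for siHOXB-AS3. In 27 of 41 lists both siHOXB-AS3 means lay on one side of both siHOXA-AS3 means. Over all single genes this held for 22.8% in the higher and 22.5% in the lower direction. A list mean averages several genes, so these shares are not its background, and none was computed. Interferon-stimulated genes had 0 of 38 called by edgeR (3 higher and 8 lower at an unadjusted p below 0.05), with a median of -0.31. RNA interference machinery genes had 0 of 15 called by edgeR, with a median of 0.01.

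HOX genes are the neighbours of both lncRNAs. Of 28 HOX cluster rows with a mean of at least 1 FPKM, HOXB-AS3 was the one called, and the other 27 ranged from log2 -1.0 (HOXC8) to 0.81 (HOXC13), 4 of them (14.8%, against 18.4% of all genes) with an unadjusted p below 0.05. HOXB5 stood at 30.9 and 32.4 CPM in siNT, 27.6 and 18 in siHOXA-AS3 and 17.3 and 14.1 in siHOXB-AS3 (log2 -0.54, adjusted p = 0.322). HOXB6 and HOXB7 differed by log2 -0.35 and -0.22 (adjusted p = 0.557 and 0.633), and for both the knockdown groups overlapped. All 8 HOXB coding genes measured at this level had values below siNT in both knockdowns, 7 of them lower in siHOXB-AS3. The median of 9 HOXB genes tested was -0.22, and 1 of the 9 lay above siNT in each knockdown. Over all genes, 49.29% lay above siNT in siHOXB-AS3 and 51.27% in siHOXA-AS3. HOXA5, HOXA6 and HOXA7 differed by log2 0.45, 0.06 and -0.61 (adjusted p = 0.419, 0.973 and 0.273). The HOXA and HOXB medians turned positive without siHOXA-AS3 replicate 1, at 0.13 and 0.06. Whether the quantification used strand is not given in the sources used here, so reads of HOX genes that overlap the lncRNAs are uncertain.

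Among 828 lncRNAs tested, 11 were called (1.33%, near the 1.54% of all genes), 7 higher and 4 lower in siHOXB-AS3. LINC00908 stood at 2.14 and 1.42 CPM in siNT, 0.338 and 0.175 in siHOXA-AS3 and 4.73 and 5.79 in siHOXB-AS3, a separation of log2 4.27 ± 0.43 (adjusted p = 0.019) with siNT in the middle. MIR31HG, the host transcript of miR-31, stood at 19.7 and 20.2 CPM in siNT, 24.4 and 25.6 in siHOXA-AS3 and 4.27 and 4.91 in siHOXB-AS3. It lay mainly on the siHOXB-AS3 side and was 5.44-fold lower there than in siHOXA-AS3 (log2 -2.44 ± 0.21, adjusted p = 0.0161). NORAD, a cytoplasmic lncRNA that binds Pumilio proteins, differed by log2 -1.42 (adjusted p = 0.0476), but its siHOXA-AS3 replicates stood at 503 and 812 CPM. CYTOR and MIR4435-2HG are near-identical copies whose reads can be split between them, and they differed by log2 1.42 and 1.26 (adjusted p = 0.0325 and 0.0496).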

How the data were processed

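Polyadenylated RNA of HT-29 cells was sequenced with a SENSE mRNA-Seq library kit. The authors quantified genes with RSEM on a RefSeq annotation and deposited, for each library, an expected count and an FPKM value per gene; the submitters' processing notes name hg19. Aligner, RSEM version and use of strand: not given in the sources used here. The deposited expected counts, rounded here to integers, total 15998518 to 26263938 per library. Of 27434 rows, 25365 held 1 gene, 627 joined overlapping genes (6.02% to 6.62% of counts), 1252 were extra copies and 190 had no symbol (at most 0.0473% of counts). Rows without a symbol were left out.

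All 6 libraries were fitted with group as the one term (edgeR 4.0.16, R 4.3.3, filterByExpr with a minimum count of 10, TMM, robust quasi-likelihood test, Benjamini-Hochberg adjustment over 13002 genes, threshold 0.05). Fold changes of both knockdowns against siNT came from the same fit. CPM values were scaled by TMM. Deposited FPKM values served for the minimum of 1, for markers and for limma 3.58.1 on log2(FPKM + 0.1) or log2(FPKM + 1). DESeq2 1.42.0, the tool the study used, was an alternative, as were other scalings, no filter, GC or length trends removed per library (loess, span 0.3), a replicate block and leaving out each library.

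Genes named were HOXA-AS3 and HOXB-AS3, the 14 highest and 14 lowest called genes with a mean of at least 1 FPKM in a row of 1 gene whose groups did not overlap, called members of each list or else its 3 smallest p, and HOX genes. Other called genes named as examples of a side or of a kind of RNA (BMP2, ERBB3, M6PR, MALL, LITAF, CAPZB, ABCB10, MCM10, POLA2, CHEK2, MCCC2, GCSH, NAP1L4, JCAD, CYTOR, MIR4435-2HG and NORAD) were chosen after their values were seen. S and G2/M phase genes came from Seurat 5.3.0. The comparison, its lists and the tests were chosen with earlier results of these data known. Seed sites and guide positions were found in GENCODE 29 transcripts of GRCh38, which held 11792 of 12507 tested rows of 1 gene.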

Additional observations from a re-analysis of the deposited data

How the results depend on the processing

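Of the 200 genes called between the knockdowns, 199 were also called by DESeq2, 200 with DESeq2 size factors in edgeR and 10 with a replicate block. All kept their direction in each alternative that tested them. In all 200 the knockdown libraries did not overlap, so the direction could hardly change and its being kept is no support. The number called was 767 with DESeq2, 701 with no filter, 2 with only the groups compared, 95 and 75 with limma on log2(FPKM + 0.1) and log2(FPKM + 1), 3593 with the GC trend removed, and 0 to 5026 when 1 library was left out. For siHOXB-AS3 against siNT, 8 became 330 with DESeq2, 253 with no filter, 2984 with only those groups, 1976 with the GC trend removed and 0 to 3025 when 1 library was left out. For siHOXA-AS3 against siNT, 0 became 49 with DESeq2, 24 with no filter, 1 with limma on log2(FPKM + 0.1), 661 with the GC trend removed, 1 with the length trend removed and 0 to 4022 when 1 library was left out. The cause was not tested.

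With a replicate block the numbers called were 10, 0 and 0 in these comparisons, and 3062, 1493 and 401 with the GC trend removed as well. Same-numbered libraries did not deviate together in every pair of groups (correlations -0.35 for siNT and siHOXA-AS3, -0.14 for siNT and siHOXB-AS3, 0.15 for the knockdowns). The replicate differences also followed GC content (Pearson's r = -0.39 in siNT, 0.75 in siHOXA-AS3 and 0.15 in siHOXB-AS3). These correlations therefore cannot tell whether the libraries were paired. The share of called genes mainly on the siHOXB-AS3 side, 46%, was 20% with the block and 21.27% to 40% when 1 siNT or siHOXA-AS3 library was left out. Without a siHOXB-AS3 library no gene was called and no share could be given. The number of lists with a median above 0 was 16 to 23 against 18. Shares with a seed site under a shorter site or the longest 3′ UTR were chosen after seeing the data. With 2 libraries per group, no gene with an absolute log2 fold change under 0.80 was called between the knockdowns.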

Other observations

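A further 4 genes called between the knockdowns were chosen after their values were seen and were not tested as a group. NQO1, a quinone reductase, stood at 1236 and 1362 CPM in siNT, 2185 and 1678 in siHOXA-AS3 and 942 and 824 in siHOXB-AS3 (log2 -1.13, adjusted p = 0.041). The aldo-keto reductase gene AKR1B10 differed by log2 -1.11 (adjusted p = 0.0285), AKR1C1 by -0.89 (adjusted p = 0.0483) and AKR1C2 by -1.28 (adjusted p = 0.0286). AKR1C1 and AKR1C2 are near-identical paralogs whose reads can be split between them. By the share defined above, NQO1, AKR1B10 and AKR1C1 were opposite genes and AKR1C2 was mainly siHOXB-AS3.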
